A study of Gallus gallus with 2 samples.

Results

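The genes described here are the 10 members of the HOXB and HOXC clusters in paralogue groups 2 to 8 that carry a symbol in the expression table: HOXB2, HOXB3, HOXB4, HOXB5, HOXB6, HOXB7, HOXB8, HOXC4, HOXC6 and HOXC8. They were listed by name, out of 37 Hox genes and 24356 rows in the table, and the list was chosen by the injected-to-uninjected ratios in the same 2 libraries, in which most of them stand higher in the injected wing. Their ratios are therefore a description and carry no test. All 10 passed the filter on low values, a mean of at least 1 TPM (a level scaled for transcript length and library size) and a value above 0 in both libraries.

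The libraries are messenger RNA from the wings of 1 chick embryo, the study's question being whether SOCS2, a suppressor of cytokine signalling, bears on the reduction of a digit in the chicken forelimb. The injected group is the right wing, given RCAS-GFP-SOCS2, an avian retrovirus carrying a fluorescent reporter and SOCS2, and the uninjected group is the left wing of the same embryo. Both wings were taken 5 days after infection at Hamburger-Hamilton stage HH 34, when the digits of the wing are forming. The embryo was selected for overexpressing SOCS2, each group is 1 library, and the control wing received no vector, so SOCS2, the virus, the injection and the side of the body cannot be told apart.

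Hox genes encode homeodomain transcription factors that give cells their position along the body axis and, later, along the limb. They lie in 4 clusters, A to D, in which gene order follows the order of use, so that low group numbers are used early and towards the head, and the highest numbers late and towards the tail or the limb tip. In the limb the late genes of clusters A and D pattern the segments from shoulder to digits, while genes of low and middle groups act earlier, when the limb field is placed on the flank, and persist in proximal connective tissue, muscle, nerve, skin and blood cells to differing degrees. Members of groups 4 and 5 act on TBX5, the forelimb initiation gene, and in mouse group 5 genes also restrain SHH at the anterior limb margin.

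The check of the labels came first. SOCS2 stood at 54.2 TPM without and 254 TPM with injection, a log2 ratio of 2.23. TBX5 was at 113 and 137 TPM, against 5.25 and 1.79 TPM for the leg gene TBX4, so both libraries carry the forelimb marker. PITX1, also a leg gene, was at 15.2 and 15.3 TPM. Each library sums to the same total by construction, the read depth is unknown, and no interval for counting error can be given. Ratios below are log2(TPM + 0.1) in the injected minus the same in the uninjected wing. A gene is called higher or lower beyond 1.5-fold, a rule of size and not a test. The median ratio over the 13946 genes compared was −0.04.

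All 10 genes had a higher level in the injected than in the uninjected wing, and 8 of them passed 1.5-fold, with 0 lower. Over all genes compared, 2.23% were called higher and 4.79% lower. Because the list was drawn up from this contrast, nothing is read from the difference between these shares. The median ratio of the 10 was 0.93, and the ratios ran from 0.30 for HOXB8 to 1.57 for HOXC4. Their summed level was 48.9 TPM on the uninjected side and 90.3 TPM on the injected side, 1.85-fold higher. In bulk tissue, more cells that express a gene and more RNA per cell cannot be told apart.

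**Figure D1:**
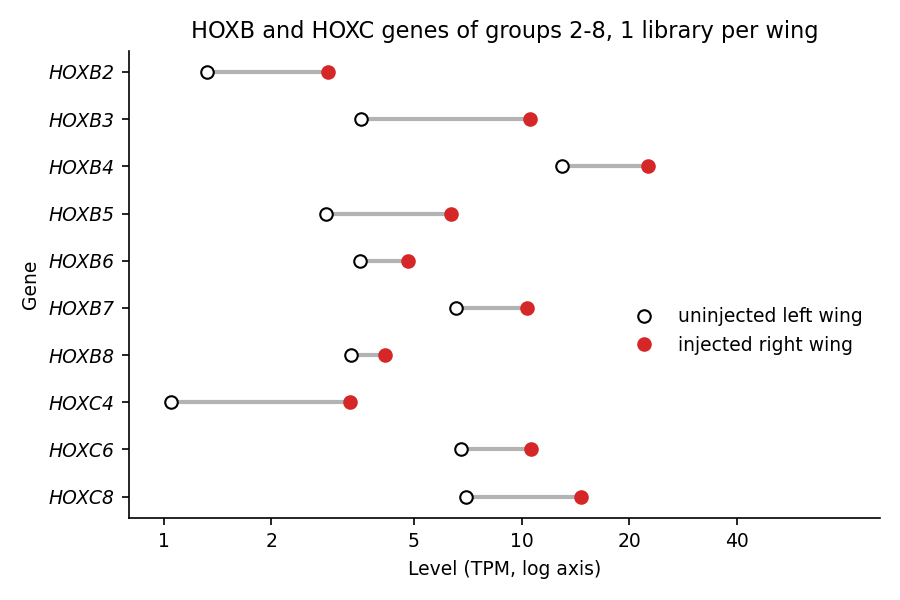
Level of each of the 10 genes in TPM (log axis) in the uninjected left wing (open circles) and the injected right wing (filled circles), 1 library each, joined by a line per gene. Every filled circle lies to the right of its open circle, with the longest lines for HOXC4 and HOXB3 and the shortest for HOXB8.

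The most anterior gene of the set is HOXB2, known for its part in hindbrain segments and facial motor neurons. Its level was 1.33 TPM without and 2.88 TPM with injection, with a log2 ratio of 1.06. The uninjected wing comes first in each pair of levels that follows. HOXB3, which acts in the hindbrain and the pharyngeal arches, was at 3.55 and 10.5 TPM. Its ratio of 1.54 was the largest of the cluster B genes and the 19th highest of all genes compared. Both genes stand below their cluster A paralogues in level in either wing.

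The group 4 genes differ in level within the set. HOXB4, known for supporting the expansion of blood stem cells, was the most abundant of the 10 in both wings, at 12.95 and 22.6 TPM (log2 ratio 0.80). HOXC4, expressed in the neck and upper trunk and in lymphoid cells, was the least abundant without injection, at 1.05 TPM against 3.31 TPM. Its ratio of 1.57 was the largest of the set and the 16th highest of all genes compared. With a pseudocount of 1 TPM it was 1.07, below HOXB3 at 1.34, so the order of these genes depends on that setting.

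HOXB5, which acts in the gut nervous system and lung and, with its paralogues, in the anterior limb, was at 2.84 and 6.34 TPM, a log2 ratio of 1.13. The group 6 genes were closer between the wings. HOXB6, known from lateral plate and limb mesenchyme, was at 3.54 and 4.80 TPM, and its ratio of 0.43 stayed within 1.5-fold. HOXC6, whose anterior border of expression falls at the level of the forelimb in vertebrates, was at 6.76 and 10.6 TPM, and its ratio of 0.65 was called higher.

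HOXB7, a trunk gene also studied for its overexpression in tumours, was at 6.54 and 10.4 TPM, a log2 ratio of 0.66. The group 8 genes differed in ratio. HOXB8, which gives an ectopic anterior SHH domain when misexpressed in the mouse forelimb, was at 3.34 and 4.15 TPM, and its ratio of 0.30 was the smallest of the 10. HOXC8, a gene of the lower brachial and thoracic trunk that sets the identity of motor neuron pools innervating the limb, was at 6.99 and 14.7 TPM, with a ratio of 1.06.

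Within the set the median ratio was larger in the lower groups. The 5 genes of groups 2 to 5 were all called higher, with a median log2 ratio of 1.13. Of the 5 in groups 6 to 8, 3 were called, and the median there was 0.65. The order is not strict, since HOXB2 lay below HOXB3, HOXB4 below HOXB5, HOXB6 below HOXB7 and HOXC8 above HOXC6. The genes were chosen by these ratios, with 1 library per wing, so no trend is read from the order. Both genes left uncalled, HOXB6 and HOXB8, are in cluster B, where 5 of 7 genes were called with a median of 0.80. All 3 cluster C genes were called, with a median of 1.06. Beyond 2-fold were 5 genes, HOXC4, HOXB3, HOXB5, HOXB2 and HOXC8, where 0.502% of all genes compared were higher by that much.

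The order of the levels changed little between the wings. In the uninjected wing it ran HOXB4, HOXC8, HOXC6, HOXB7, HOXB3, HOXB6, HOXB8, HOXB5, HOXB2 and HOXC4, from 12.95 down to 1.05 TPM. In the injected wing the first 3 kept their places, HOXB3 passed HOXB7, HOXB5 passed HOXB6 and HOXB8, and HOXC4 passed HOXB2. The levels of neighbours such as HOXB3 and HOXB6 in the uninjected wing (3.55 and 3.54 TPM), or HOXC6, HOXB3 and HOXB7 in the injected wing (10.6, 10.5 and 10.4 TPM), lie so close that 1 library per wing gives them no order. The span from the highest to the lowest level was 12.3-fold in the uninjected and 7.84-fold in the injected wing.

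By difference in TPM rather than by ratio, the genes ranked differently. TPM is a share of each library, not an amount of transcript. The summed level of the 10 genes was 41.4 TPM higher in the injected wing. HOXB4 made up 23.3% of that difference, HOXC8 18.5% and HOXB3 16.9%. In the uninjected wing HOXB4 already made up 26.5% of the summed level. Of the difference between the wings, HOXC4, with the largest ratio, made up 5.47%. HOXB2, HOXB6 and HOXB8 made up 3.76%, 3.06% and 1.95% of that difference.

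All 10 genes are of low abundance, and low genes scatter more. Of the genes compared with a mean of 1 to 5 TPM, 7.77% were called higher, and 5% of them had log2 ratios above 0.73. HOXB2, HOXB5, HOXB6, HOXB8 and HOXC4 belong to this range, with 3 called. Among genes with a mean of 5 to 20 TPM, 1.95% were called higher, and 5% had ratios above 0.40. HOXB3, HOXB4, HOXB7, HOXC6 and HOXC8 belong there, and all 5 were called. Since the 10 genes were chosen by these ratios, nothing is read from setting them beside these shares.

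**Figure D2:**
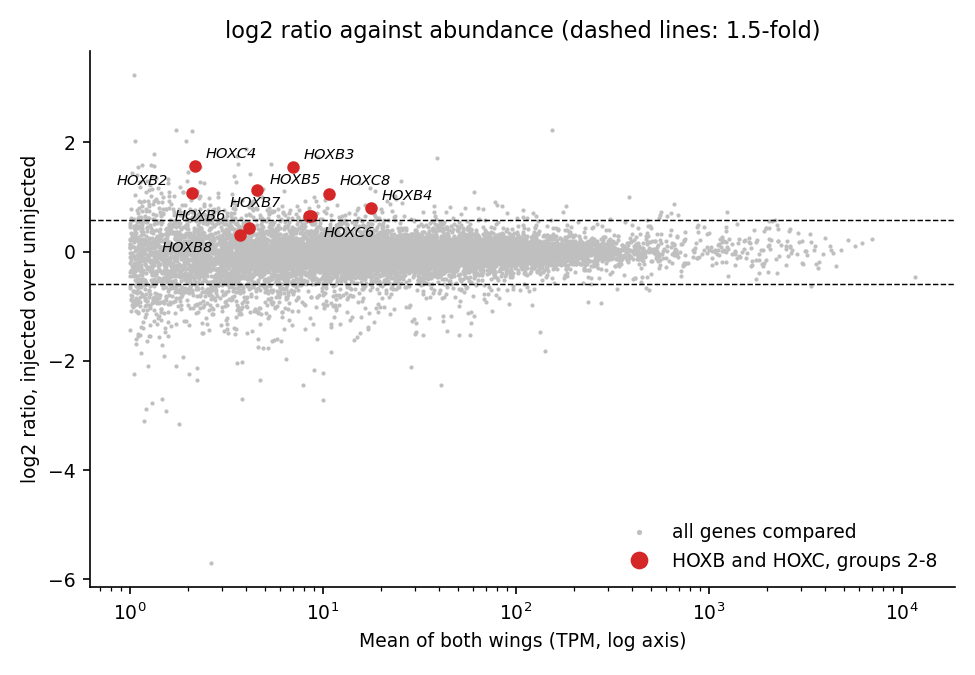
The log2 ratio, injected over uninjected, of all 13946 genes compared (grey) against their mean level in both wings (TPM, log axis), with the 10 HOXB and HOXC genes in red and dashed lines at 1.5-fold. The cloud widens at low levels, and 8 of the 10 genes lie above the upper dashed line. Since the 10 genes were chosen by these ratios, nothing is read from their place against the cloud.

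The neighbours just outside the set in the same clusters had other values. On the anterior side HOXB1 was barely detected, at 0.10 and 0.12 TPM, and was not compared. On the posterior side HOXB9 was at 1.37 TPM in both wings. HOXC9, a gene of the thoracic trunk and next to HOXC8, was at 10.2 and 4.74 TPM, a log2 ratio of −1.09 and thus lower with injection. HOXC10 was at 1.76 and 1.73 TPM. HOXC11 and HOXC13 had means under 1 TPM, and HOXB13 and HOXC12 were listed at 0 in both wings. Across the edge from HOXC8 to HOXC9, therefore, the ratio went from 1.06 to −1.09.

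**Figure D3:**
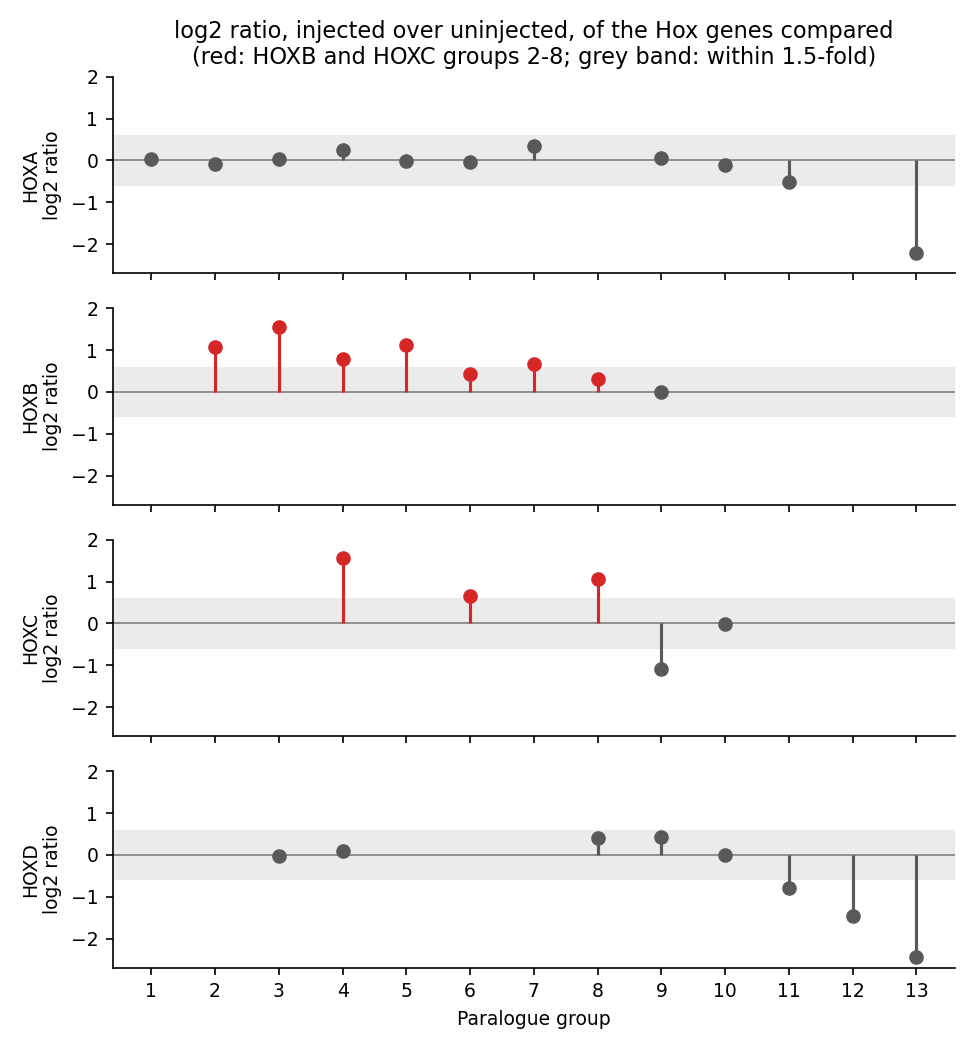
The log2 ratio, injected over uninjected, of the 32 Hox genes that passed the filter, by paralogue group in a panel per cluster, with the set in red and a grey band for ratios within 1.5-fold. Red stems stand above 0 in clusters B and C, cluster A and D genes of the same groups lie inside the band, and stems at the right end of clusters A and D point down. The genes in red were chosen by these ratios.

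The paralogues in the other clusters are set beside the 10 genes within each group. The 9 genes of clusters A and D in groups 2 to 8 all lay within 1.5-fold, with log2 ratios from −0.08 to 0.42 and a median of 0.03. The shares over all genes compared were 2.23% higher and 4.79% lower. Because the 10 genes were chosen by their ratios, nothing is read from the contrast with these 9. For group 3, HOXA3 was at 58.2 and 59.6 TPM and HOXD3 at 8.11 and 8.02 TPM, beside the 3.55 and 10.5 TPM of HOXB3. For group 4, HOXA4 was at 6.66 and 7.90 TPM and HOXD4 at 5.04 and 5.42 TPM. For group 5, HOXA5 was at 22.9 and 22.6 TPM. The nearest to the set among these 9 were HOXD8 (ratio 0.42) and HOXA7 (0.35), and the ratios of those genes exceeded that of HOXB8. In the next group, HOXD9 was at 14.4 and 19.4 TPM, and its ratio of 0.43 was close to that of HOXB6.

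Clusters B and C supplied the smaller part of most groups. HOXB3 made up 5.08% of the summed level of group 3 in the uninjected and 13.5% in the injected wing. HOXB2 made up 9.30% and 19.1% of group 2, and HOXB5 11.03% and 21.9% of group 5. In group 4, where HOXB4 is the most abundant gene, HOXB4 and HOXC4 together made up 54.5% and 66.0%. The shares in group 6 were 40.7% and 51.4%, and they were closest in group 7, at 19.7% and 23.4%, and in group 8, at 22.1% and 27.8%.

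**Figure D4:**
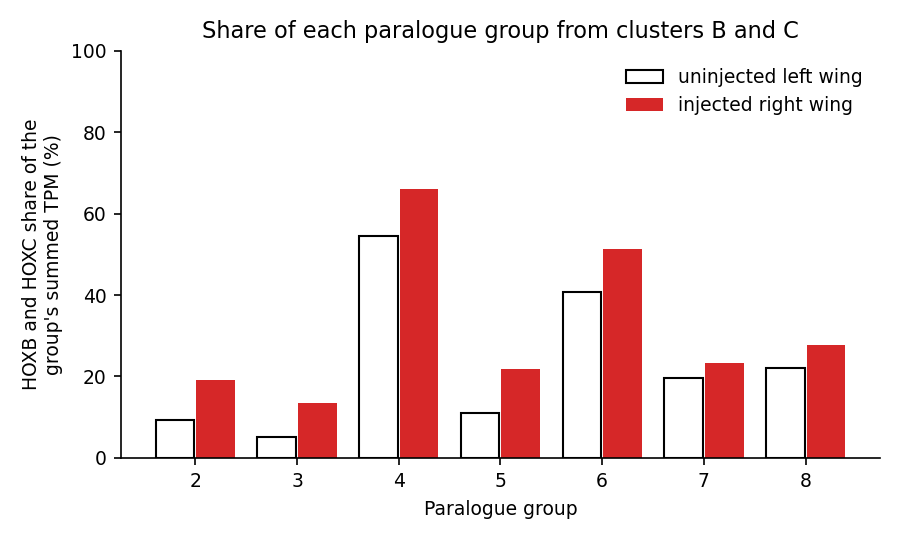
Share (%) of the summed TPM of each paralogue group that came from clusters B and C, in the uninjected left wing (open bars) and the injected right wing (filled bars). The filled bar is the taller in all 7 groups, from which nothing is read, since the genes were chosen by their ratios. Clusters B and C exceed 50% in group 4 in both wings and in group 6 in the injected wing.

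As a share of all Hox transcript the 10 genes stood at 5.59% in the uninjected and 13.2% in the injected wing. That share also moves with the genes of groups 11 to 13, whose summed level was 422 and 173 TPM. Of the 5 genes of those groups that were compared, HOXD13 (−2.43), HOXA13 (−2.22), HOXD12 (−1.46) and HOXD11 (−0.79) were lower. HOXA11 (−0.52) lay within 1.5-fold. Of all genes compared, 4.79% were called lower. Against the Hox genes of groups 1 to 10 alone, the share of the 10 genes was 10.8% and 17.6%. Here too the genes were chosen by their ratios, so nothing is read from the higher share.

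The genes flanking the 2 clusters held 0 calls in the higher direction, where 2.23% of all genes compared were called higher. With so few flanking genes, nothing is read from that count. The RefSeq gene order of assembly GRCg7b was used for names, neighbours and overlaps only. In it, the listed HOXB genes lie on chromosome 27 and HOXC8 to HOXC13 on chromosome 34. HOXC4, HOXC6 and HOXB9 were not placed here. Of the 5 protein-coding genes on either side of the HOXB cluster, 6 of 10 could be compared, all within 1.5-fold, with log2 ratios from −0.33 for CDK5RAP3 to 0.26 for the transcription factor gene NFE2L1. Around HOXC8 to HOXC13, 7 of 10 could be compared. TARBP2, which encodes a partner of the microRNA-processing enzyme Dicer, was lower (−0.64), and the other 6 lay within 1.5-fold. SKAP1, the first of these genes beyond HOXB1, was at 0.26 and 0.45 TPM and was not compared. SNX11 and CBX1, which follow SKAP1, had ratios of 0.07 and −0.02.

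Several of these genes share ground in the RefSeq annotation. In that annotation the span of HOXB3 contains HOXB4, HOXB5 and HOXB6, and the span of HOXB5 contains HOXB6. No source used here says how reads from shared or overlapping exons were divided, or whether strand was used. The annotation behind the TPM values is not given and may differ, and overlaps in it were not examined. The values of HOXB3, HOXB4, HOXB5 and HOXB6 may thus be uncertain as separate genes. Antisense transcripts cannot be told apart from any of the 10 genes. Overlaps of HOXC4 and HOXC6 were not examined here.

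The partners and regulators of Hox genes were described from lists. Of 6 TALE cofactors compared, homeodomain proteins that bind DNA together with Hox proteins, MEIS2 was higher, at 33.0 and 58.6 TPM (log2 ratio 0.82, listed in the table as Meis2a.2), and the other 5 lay within 1.5-fold. MEIS2 marks the proximal limb, and its relative MEIS1 had a ratio of 0.13. PBX3 was at 48.5 and 53.8 TPM. Of 24 Polycomb genes, which keep Hox clusters silent, 0 were higher and CBX8 (8.75 and 5.19 TPM, −0.74) was lower. The list median was −0.05. The 9 genes of the trithorax group, which keep Hox genes active, had a median of −0.03 and 0 calls. The shares over all genes compared were 2.23% higher and 4.79% lower, so nothing is read from few calls in short lists.

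Among 13 upstream regulators compared, 0 were called in either direction, where 2.23% of all genes compared were higher and 4.79% lower. RARB and RARG, receptors for retinoic acid, an inducer of low-group Hox genes, were at 122 and 112 TPM and at 155 and 148 TPM. Of the retinoic acid synthesis genes in the list, ALDH1A2 was at 89.1 and 100.4 TPM and ALDH1A3 at 107 and 80.6 TPM. CDX2 and CDX4, trunk activators of Hox genes, were listed at 0 in both wings.

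Of 14 limb genes linked to Hox function, SHH alone was called, lower at 6.35 and 2.87 TPM (−1.12). The share called lower over all genes compared was 4.79%. TBX5, downstream of groups 4 and 5 in the limb field, had a ratio of 0.28. HAND2, which acts upstream of SHH at the posterior margin, was at 88.2 and 65.4 TPM (−0.43). GLI3, its anterior counterpart, was at 25.5 and 27.6 TPM. The scapula and girdle genes EMX2, PAX1 and TBX15 had ratios of −0.25, 0.14 and 0.19.

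The calls among markers of nerve and muscle, tissues in which low-group Hox genes are known to be expressed, were all higher. Those among cartilage markers, given below, were also all higher. Over all genes compared, 2.23% were called higher. Of 7 Schwann cell markers compared, 6 had ratios above 0 and SOX10 (0.61) was higher, with sums of 231 and 258 TPM. Of 10 muscle precursor markers, 8 were above 0 and MYF5 (11.9 and 25.7 TPM, 1.11), MSC (0.73) and LBX1 (0.59) were higher, with sums of 633 and 709 TPM. With a pseudocount of 1 TPM, SOX10 (0.58) and LBX1 (0.54) lost their calls. Of 16 markers of differentiated muscle, 15 were above 0 and MYLPF (0.66) and MYH7B (0.65) were higher, with sums of 6967 and 8202 TPM. The part of nerve and muscle tissue in the Hox values was not tested.

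Neuron cell bodies gave mixed values. Of 17 markers in the table, 7 could be compared, and NTRK2 (0.99) and STMN2 (0.71) were higher, while the summed level was 155 and 161 TPM. NEUROG1, OLIG2 and POU4F1, which mark sensory and spinal neurons or their precursors, were at 0 in both wings. CHAT, a marker of cholinergic neurons, motor neurons among them, was at 0.05 and 0 TPM. The motor neuron factor MNX1 was at 12.1 and 14.8 TPM.

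Erythrocyte and epidermal markers mostly had ratios below 0, with list medians of −0.27 and −0.31. Over all genes compared the median was −0.04, with 2.23% called higher and 4.79% lower. Of 10 erythrocyte markers compared, 2 were above 0 and RHAG (−1.01), SLC4A1 (−0.85) and HBZ (−0.70) were lower, with sums of 2724 and 2272 TPM. Of 14 epidermal markers, 2 were above 0 and ESRP1 (−0.72) was lower, with sums of 798 and 657 TPM. The 12 macrophage and 13 endothelial markers compared held 0 calls, with sums of 289.9 and 288 TPM and of 538 and 524 TPM. Among 15 cartilage markers, 12 were above 0, with a list median of 0.19 and sums of 3052 and 3702 TPM. MATN3 (0.75) and EPYC (0.70) were higher, and MATN3 lost its call with a pseudocount of 1 TPM (0.57). Among 20 tendon and connective tissue markers, 8 were above 0, with a list median of −0.10 and sums of 14008 and 12447 TPM. OSR1 (0.85) and POSTN (0.66) were the genes called, both higher. Of 10 smooth muscle markers, 6 were above 0 and ACTG2 was higher (0.85). Of 6 melanocyte markers, 1 was above 0 and OCA2 was lower (−0.92). The part of these tissues, and of the difference in distal Hox genes and MEIS2, in the values of the 10 genes was not tested.

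Other ways of processing the values were tried. Under 3 other scalings, no filter, pseudocounts of 1 and 0.01 TPM, and removal of the abundance trend, the same 8 genes passed 1.5-fold, and all 10 ratios stayed above 0. With a minimum mean of 5 TPM, or with a 2-fold call, 5 genes were called. The filters cannot change a ratio, and each scaling moves all ratios by nearly the same amount, so these settings are no independent support. HOXC6 and HOXB7 lay closest to the threshold, at lowest ratios of 0.586 and 0.593 against 0.585 for 1.5-fold. HOXB6 reached at most 0.52 and HOXB8 0.41. Over all genes, higher genes made up 31.8% of the calls, and 45.1% once the trend over abundance was removed.

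**Figure D5:**
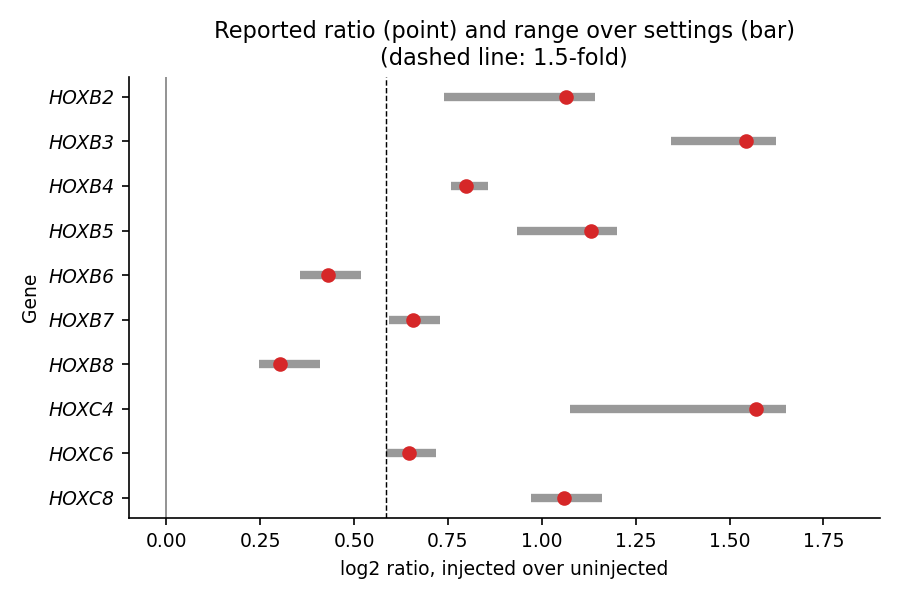
The reported log2 ratio, injected over uninjected, of each gene (point) with the lowest and highest ratio over the processing settings tried (bar), and a dashed line at 1.5-fold. The bars of HOXB6 and HOXB8 end below the line, those of the other 8 genes lie above it, and HOXC4 and HOXB2 have the widest bars.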

How the data were processed

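Messenger RNA of 2 wings of 1 chick embryo was sequenced, 1 library per group. The values used are TPM as deposited by the authors; per the submitters' processing notes, HISAT2 2.2.1, StringTie 2.1.7 and build GRCg6a were named, with no role given. No source used here gives the annotation release or the strand setting. A second table, with 2 columns whose names match neither sample's title, was not used. Read depth is unknown, so no interval is given.

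Log2 ratios used a pseudocount of 0.1 TPM. Of 24356 rows, 1313 short RNAs were left out, and genes above 0 in both libraries whose mean reached 1 TPM were compared. With 1 library per group there was no test. Genes were called by a planned rule of size, 1.5-fold. The code for ratios, scalings and calls was run on simulated data, which gives no support to that threshold. The 10 genes and all lists were chosen with earlier results of these data known. Named were all 10 genes and their adjoining and called Hox relatives. Of the 5 flanking genes a side, those named were the called gene, the ends of the HOXB range and the nearest beyond HOXB1. From each list, up to 3 called genes a direction were named, or else its most abundant. The paralogues, HOXD9, limb genes and neuron markers given beyond this were chosen after their values were seen. Also named outside this rule were MEIS1, PBX3, ALDH1A2, ALDH1A3, CDX2 and CDX4. List symbols were matched to the table, or through older symbols in RefSeq's GRCg7b table. The older-symbol matches of TFRC, CTCF and HBAD were dropped as doubtful after the data were examined. Some genes of the lists are not reported here, and the counts leave them out. Alternatives were 3 scalings, 2 filters, 2 pseudocounts, a 2-fold call and removal of a running median over 501 genes. Python 3.11.15, pandas 2.3.3, NumPy 2.4.6 and matplotlib 3.10.9 were used.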

Additional observations from a re-analysis of the deposited data

How the results depend on the processing

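Of the 10 genes, 8 were called higher. With a minimum mean of 5 TPM, 5 genes could be measured and all 5 were called higher. With a 2-fold call, 5 of 10 were called, and HOXB4, HOXB7 and HOXC6 lost theirs. Under the other 7 alternatives the count was 8, which dropping the filter could not have changed. The median ratio of 0.93 lay between 0.75, with a pseudocount of 1 TPM, and 1.00, with the trend over abundance removed. Over all genes compared, 311 were called higher and 668 lower. The higher and lower counts were 831 and 1297 with no filter on the mean, 122 and 292 with a minimum mean of 5 TPM, 186 and 432 with a pseudocount of 1 TPM, and 70 and 207 with a 2-fold call. No paired analysis was possible because each group holds 1 library. Differences between wings cannot be set against a spread between embryos. With depth unknown, the counting error of genes at 1 to 5 TPM, such as HOXC4 and HOXB2, cannot be given.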
